A study of Mus musculus with 62 samples.

Results

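The genes described here are 10 genes of oxygen sensing and of the hypoxia-inducible factor (HIF) pathway, chosen by symbol: Hif1a, Epas1, Hif3a, Egln1, Egln2, Egln3, Vegfa, Bnip3, Higd1a and Ankrd37. All 10 were found in each of the 4 expression tables of the series, the widest of which lists 29239 symbols. Cells sense oxygen through prolyl hydroxylases, which mark the HIF alpha subunits for ubiquitination by the VHL ligase when oxygen is present. When oxygen falls, the alpha subunits escape this mark, pair with ARNT and bind short DNA motifs near their target genes. Control of HIF alpha acts mainly on the protein, so transcript levels of the alpha subunits do not report its amount. Slow oxidative muscles such as the soleus are richer in capillaries, mitochondria and myoglobin than fast glycolytic muscles such as the gastrocnemius.

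The 62 libraries measured RNA of mouse muscle and of C2C12 cells in 14 groups. The values are FPKM, in which fragments are divided by the length of the gene and the depth of the library, which allows levels to be compared between genes within a table. F/F mice carry floxed ChREBP (Mlxipl, a glucose-responsive transcription factor) without Cre, and ChMKO mice carry the same alleles with Mck-cre, in which the muscle creatine kinase promoter drives the recombinase. On chow, gastrocnemius (GC) and soleus (SOL) were taken (n = 5 per muscle and genotype, with shared mouse numbers); the title of 1 F/F soleus library (mouse 69) carries the number of a ChMKO mouse, while its genotype label and column name say F/F. A second experiment used GC of both genotypes in normoxia (Norm), after 2 weeks in a chamber set to about 5500 m of altitude (Hypo), or after 3 months on a diet with 68% of calories from fructose (HFrD), with n = 4 per group. The hypoxic mice were returned to standard housing before tissue was taken, so the values do not describe muscle collected under low oxygen. The third experiment held GC of C57BL/6J mice 14 days after injection of an adeno-associated virus with a CMV promoter, which is not restricted to muscle fibres, AAV-CON or AAV-MLXIPL (n = 5 each), and the fourth C2C12 mouse myoblasts on day 7 of differentiation, with a vector control or ChREBP overexpression (n = 4 cultures each of 1 stable line per group). The labels give no age for any group.

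Depth recovered from the values was 16390260 to 19808340 reads per library in the chow table and 14473170 to 23460515 in the table of normoxia, hypoxia and fructose, about 15600000 to 20300000 in the AAV table, and unknown for C2C12. Mlxipl was lower in every ChMKO than in every F/F library of GC on chow, Norm, Hypo and HFrD, while in SOL the ChMKO libraries (30.0 to 46.1 FPKM) overlapped the F/F libraries (43.8 to 64.1 FPKM). The targeting removes 1 exon, so a value over the whole gene is only a partial check of the deletion. Myh7, the slow myosin heavy chain, was 1757 to 2267 FPKM in SOL of F/F mice and 0.202 to 37.6 FPKM in their GC, and Myh4, the fastest myosin, was 19.4 to 1229 FPKM in SOL and 8919 to 12162 FPKM in GC. C2C12 cells held little of either adult myosin (Myh7 at most 1.21 FPKM, Myh4 at most 4.85 FPKM) and at most 0.06 FPKM of Cdh5, which marks endothelial cells.

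In the table of normoxia, hypoxia and fructose the libraries stood in 2 sets that no label names. Ttn (titin, a very long sarcomere transcript) was 21.2 to 43.0 FPKM in 12 libraries and 133 to 162 FPKM in the other 12, with none between. Neb (nebulin, also very long) was 53.9 to 133 FPKM in the first and 357 to 408 FPKM in the second set, and the first principal component, with 62.9% of the variance, separated the same sets. The low set held all Norm and Hypo libraries of ChMKO mice and 2 of 4 libraries each of Norm and Hypo of F/F mice, and the high set held the others, with all HFrD libraries. In ChMKO mice the fructose diet and the set therefore cannot be told apart, while both sets occur within the Norm and Hypo groups of F/F mice. Ttn was 66.8 to 112 FPKM over all chow libraries and 315 to 356 FPKM over all AAV libraries. Results of the table with 2 sets are given below as compared by group, and beside that with the set as a term in the model, an alternative chosen after the data were seen.

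Per length, Hif3a and Ankrd37 were the lowest of these genes in every mouse muscle group. In GC of F/F mice on chow the order was Bnip3 (91.1 ± 4.23 FPKM, SD, n = 5), Egln1 (64.1 ± 7.73), Egln2 (49.5 ± 8.81), Vegfa (45.3 ± 14.2), Epas1 (27.5 ± 8.03), Higd1a (19.9 ± 1.3), Egln3 (15.9 ± 7.94), Hif1a (2.34 ± 0.576), Ankrd37 (0.948 ± 0.688) and Hif3a (0.159 ± 0.103). The libraries of Bnip3 lay above those of Egln1, those of Egln3 above Hif1a and those of Ankrd37 above Hif3a, while all other neighbours in this order overlapped. In SOL of F/F mice the order began with Bnip3, Vegfa and Egln1, and in Norm with Egln1 and Bnip3. Among the alpha subunits, Epas1 (HIF-2 alpha) thus stood above Hif1a in every muscle library, and Hif3a was near the limit of detection with 5 to 38 reads per library in this group. Hif3a had a mean under 0.5 FPKM in every comparison and was not tested. Ankrd37, an ankyrin-repeat protein whose gene is a known HIF target, was tested only where its mean reached 0.5 FPKM.

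The comparison of muscles asks how oxygen-sensing genes differ between a slow and a fast muscle. In F/F mice, 8 of the 9 tested genes passed an adjusted p of 0.05, 7 higher and 1 lower in SOL, and the same counts were found in ChMKO mice, where 8 of 9 passed with 7 higher and 1 lower (limma on log2(FPKM + 1), two-sided, Benjamini-Hochberg over all genes tested). The background is wide: 50.4% of all tested genes passed in F/F and 57.9% in ChMKO mice. The median change of the 9 genes was 0.64 on the log2 scale in F/F mice beside 0.18 over all genes, and 0.72 beside 0.15 in ChMKO mice. The values below include that shift.

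Among the prolyl hydroxylases, Egln3 (PHD3, itself a HIF target) had the largest difference of the 10 genes. Egln3 in F/F mice was 11.1, 27.6, 6.99, 19.3 and 14.5 FPKM in GC and 38.9, 61.6, 66.8, 65.0 and 49.2 FPKM in SOL. ChMKO mice had 14.9, 11.9, 20.3, 34.3 and 20.2 FPKM in GC and 65.5, 79.1, 79.4, 111 and 104 FPKM in SOL. Every SOL library lay above every GC library in both genotypes. The log2 change of Egln3 was 1.87 (SE 0.297, limma adjusted p = 0.000434) in F/F and 2.11 (SE 0.239, limma adjusted p = 1.84e-05) in ChMKO mice. Egln1 (PHD2, the main oxygen sensor for HIF) was higher in SOL by 0.58 (SE 0.0948, limma adjusted p = 0.000507) in F/F and by 0.72 (SE 0.0777, limma adjusted p = 1.27e-05) in ChMKO mice. Its SOL libraries held 86.1 to 106 FPKM in F/F and 101 to 110 FPKM in ChMKO mice, against 56.7 to 75.3 and 57.4 to 79.2 FPKM in GC, again without overlap.

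Egln2 (PHD1) went the other way. In ChMKO mice it was 44.4 to 56.2 FPKM in GC and 35.8 to 40.6 FPKM in SOL, so the muscles did not overlap, with a log2 change of -0.43 (SE 0.0710, limma adjusted p = 0.000304). Egln2 in F/F mice was 43.2, 42.2, 63.6, 46.2 and 52.2 FPKM in GC and 35.4, 39.0, 39.0, 36.9 and 46.2 FPKM in SOL, which overlap. Its change there was -0.31 (SE 0.119, limma adjusted p = 0.0455), and this call was lost in 7 of the 10 fits that left out 1 library (SOL mouse 57, 58, 69 or 70, or GC mouse 69, 70 or 71), with adjusted p from 0.0600 to 0.0958. The 3 hydroxylases of the same family thus differed in direction between the muscles, Egln3 and Egln1 higher in SOL and Egln2 lower, also after each library was rescaled by its median ratio to the gene means.

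Of the alpha subunits, Epas1 was 23.5, 34.9, 16.4, 35.4 and 27.1 FPKM in GC and 52.2, 50.03, 60.97, 53.7 and 62.02 FPKM in SOL of F/F mice. ChMKO mice held 21.8 to 33.9 FPKM in GC and 48.6 to 62.8 FPKM in SOL. No SOL library overlapped a GC library, and the log2 change was 1.04 (SE 0.183, limma adjusted p = 0.000799) in F/F and 1.02 (SE 0.107, limma adjusted p = 1.05e-05) in ChMKO mice. Hif1a was low in both muscles, at 1.58 to 2.91 FPKM in GC and 2.70 to 3.53 FPKM in SOL of F/F mice. Its change was 0.60 (SE 0.129, limma adjusted p = 0.00194) in ChMKO mice and 0.32 (SE 0.122, limma adjusted p = 0.0465) in F/F mice. The muscles overlapped in both genotypes, with GC up to 2.88 FPKM and SOL from 2.85 FPKM in ChMKO mice. The F/F call of Hif1a was lost in 6 of 10 fits without 1 library (SOL mouse 57, 69 or 70, or GC mouse 69, 70 or 71), with adjusted p from 0.0606 to 0.108, and after rescaling, where the change was 0.17 with an adjusted p of 0.285. Hif3a, the third alpha subunit, held 0.0387 to 0.285 FPKM in GC and 0.00736 to 0.215 FPKM in SOL of F/F mice, the latter from 1 to 30 reads. Fitted without the filter, Hif3a was lower in SOL of ChMKO mice (-0.13, limma adjusted p = 0.0177) and differed by -0.08 (limma adjusted p = 0.455) in F/F mice.

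Among the effector genes, Bnip3, which marks mitochondria for removal by autophagy, was 85.2, 96.7, 92.9, 89.7 and 91.0 FPKM in GC and 174, 222, 208, 195 and 221 FPKM in SOL of F/F mice. ChMKO mice held 89.9 to 96.5 FPKM in GC and 205 to 239 FPKM in SOL. Every SOL library lay above every GC library, and the log2 change of Bnip3 was 1.15 (SE 0.0858, limma adjusted p = 4.28e-06) in F/F and 1.22 (SE 0.0542, limma adjusted p = 1.59e-08) in ChMKO mice. Vegfa, the main angiogenic ligand, was 51.2, 65.4, 26.8, 40.6 and 42.8 FPKM in GC of F/F mice and 108, 106, 85.3, 64.8 and 129 FPKM in their SOL. The GC library of mouse 58 reached the SOL library of mouse 70, and all others were apart. The change of Vegfa was 1.12 (SE 0.233, limma adjusted p = 0.00222) in F/F and 1.01 (SE 0.142, limma adjusted p = 0.000102) in ChMKO mice, whose muscles did not overlap. Higd1a, a mitochondrial inner membrane protein of the respiratory supercomplexes, was higher by 0.64 (SE 0.0948, limma adjusted p = 0.000284) and by 0.60 (SE 0.0834, limma adjusted p = 9.49e-05). Ankrd37 differed by -0.12 (95% interval -0.51 to 0.27) in F/F and by -0.08 (-0.37 to 0.21) in ChMKO mice, with limma adjusted p of 0.614 and 0.608.

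**Figure D1:**
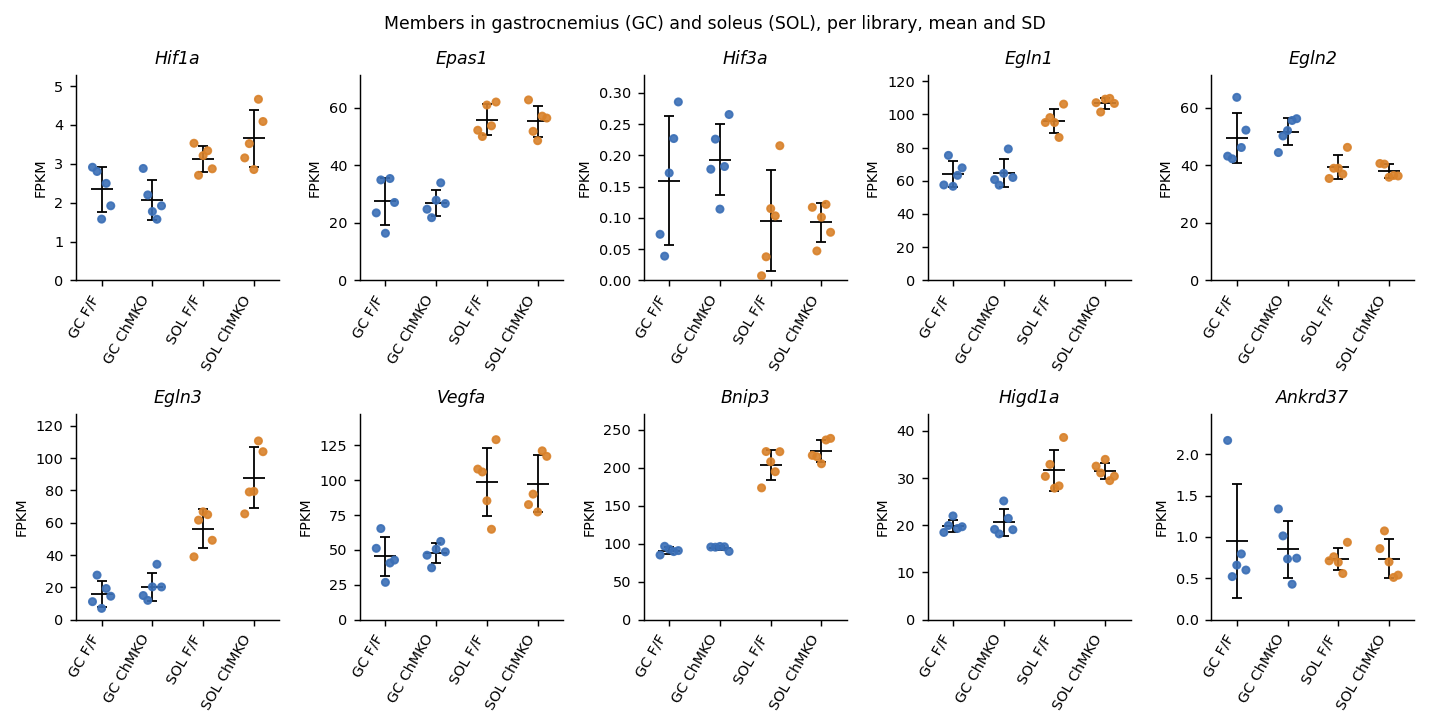
FPKM of the 10 genes on linear axes from 0 in gastrocnemius (GC, blue) and soleus (SOL, orange) of both genotypes without treatment. Each point is 1 library (n = 5 per group), with the mean as a dash and the SD as bars; Egln3, Bnip3 and Epas1 have every SOL library above every GC library, and Egln2 is lower in SOL.

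Whether the muscle difference itself differed between genotypes was tested as a contrast with the mouse as a random effect. No member passed (0 of 9, beside 0.00759% of all genes by limma adjusted p), and 0 of 9 had an unadjusted p under 0.05, beside 5.99% of all genes. The largest differences in size were those of Hif1a, at 0.28 (95% interval -0.09 to 0.66), and Egln3, at 0.25 (-0.57 to 1.07).

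Markers of several other cell types moved with these differences, while those of others did not. Summed FPKM of 10 endothelial markers was 67.4 to 124 in GC and 189 to 340 in SOL of F/F mice, and at most 112 in GC and at least 157 in SOL of ChMKO mice, and all 9 tested endothelial markers were higher in SOL in each genotype. Summed red blood cell markers were 61.9 to 123 FPKM in GC and 165 to 354 FPKM in SOL of F/F mice, and all 5 tested were higher in SOL in each genotype. All 5 smooth muscle and pericyte markers tested were also higher in SOL in each genotype. Adipocyte markers were higher in SOL for 2 of 6 by adjusted p and 6 of 6 by unadjusted p in F/F mice (median 1.36), and for 3 of 6 by adjusted p in ChMKO mice (median 0.64). Leaving out 1 library lost each of these calls in 4 to 8 of 10 fits. Summed fibroblast and tendon markers overlapped in F/F mice, at 94.7 to 273 FPKM in GC and 75.3 to 320 FPKM in SOL. Macrophage and leukocyte markers did too, at 24.5 to 45.8 and 26.3 to 56.7 FPKM. Both sums also overlapped in ChMKO mice. Of these lists Scx was called higher in SOL in each genotype, and Csf1r lower in ChMKO mice. The part of vessel cells, blood and fat in the higher Epas1, Vegfa, Bnip3 and Egln3 of SOL was not tested, and in whole muscle fewer cells of a type cannot be told apart from less RNA per cell.

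The promoters of Egln3 and Bnip3, the genes with the largest differences between the muscles, Egln2, which went the other way, and Ankrd37, with no call, are shown because the HIF dimer binds short core motifs, ACGTG or GCGTG, on either strand. The sequences are RefSeq windows of build GRCm38.p6, from 250 bases before to 50 bases after an annotated start, found for 9 of the 10 genes at 11 starts. Bases in capitals are matches to ACGTG or GCGTG or to their reverse complements CACGT and CACGC. A match to CACGTG, the E-box that ChREBP-type factors also recognise, overlaps ACGTG on both strands.

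Egln3 (chr12:54203825-54204124, minus strand): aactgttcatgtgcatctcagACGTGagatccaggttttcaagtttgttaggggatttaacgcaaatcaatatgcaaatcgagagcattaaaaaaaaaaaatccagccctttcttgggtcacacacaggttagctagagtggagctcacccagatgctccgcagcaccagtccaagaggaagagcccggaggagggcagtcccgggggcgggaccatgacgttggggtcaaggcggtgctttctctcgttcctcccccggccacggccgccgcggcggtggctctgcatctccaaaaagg
Bnip3 (chr7:138909457-138909756, minus strand): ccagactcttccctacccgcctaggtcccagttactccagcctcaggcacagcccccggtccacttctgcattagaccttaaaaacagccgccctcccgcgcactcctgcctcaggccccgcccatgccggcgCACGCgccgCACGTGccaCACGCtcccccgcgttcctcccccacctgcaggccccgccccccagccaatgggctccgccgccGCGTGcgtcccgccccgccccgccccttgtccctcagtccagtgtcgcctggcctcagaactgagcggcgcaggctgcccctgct
Egln2 (chr7:27166753-27167052, minus strand, the start with more matches): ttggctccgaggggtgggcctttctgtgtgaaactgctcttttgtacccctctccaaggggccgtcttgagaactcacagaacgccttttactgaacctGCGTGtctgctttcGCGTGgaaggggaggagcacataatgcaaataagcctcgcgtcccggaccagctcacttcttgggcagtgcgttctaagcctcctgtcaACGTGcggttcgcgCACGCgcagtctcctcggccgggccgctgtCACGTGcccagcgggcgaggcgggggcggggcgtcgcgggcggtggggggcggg
Ankrd37 (chr8:45999801-46000100, minus strand): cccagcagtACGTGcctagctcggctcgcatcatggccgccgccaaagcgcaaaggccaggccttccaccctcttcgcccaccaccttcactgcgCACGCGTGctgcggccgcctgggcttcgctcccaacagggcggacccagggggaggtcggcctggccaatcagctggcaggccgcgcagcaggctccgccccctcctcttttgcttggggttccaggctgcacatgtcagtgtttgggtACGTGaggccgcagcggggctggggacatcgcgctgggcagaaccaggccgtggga

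Core motifs were present at 10 of the 11 starts, while 43.8% of all 32851 windows hold at least 1. Bnip3 held 5 core matches, of which 2 are the strands of 1 CACGTG, and Ankrd37 held 4. The Egln2 window printed above held 6, and Egln3, with the largest difference between muscles, held 1. For Vegfa, 1 start held none and the other held 2. Egln1 held 2, Hif1a 3, Higd1a 3 and Hif3a 2. A match in a window is a description of letters and says nothing about binding.

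The comparison of hypoxia with normoxia asks how the GC of each genotype stood after 2 weeks of chamber exposure. None of the 8 tested genes passed the adjusted p in either genotype. In F/F mice 0 of 8 passed, beside 0% of all 10740 genes tested by limma, and 0 of 8 had an unadjusted p under 0.05, beside 3.83% of all genes. That count was 2 of 8 after rescaling, 2 of 8 without the Hypo library at 15.5 FPKM of Egln3 and 1 of 8 without the Norm library at 28.2 FPKM. In ChMKO mice 0 of 8 passed, beside 0.890% of all genes, and 1 of 8 (Egln3) had an unadjusted p under 0.05, beside 15.1%. That count was 0 of 8 without the Norm library at 14.9 FPKM of Egln3 and 2 of 8 without the Hypo library at 34.6 FPKM. Without the filter it was 2 of 10, Hif3a differing by 0.17 (limma unadjusted p = 0.0225, adjusted p = 0.324) in ChMKO mice and by 0.06 (adjusted p = 1.00) in F/F mice. Fitted with the set, 0 of 8 passed either p in F/F mice, beside 1577 in place of 411 of all genes at an unadjusted p under 0.05. All ChMKO libraries of this comparison were of the low set, and with all 6 groups and the set in 1 fit 0 of 8 passed there and 2 of 8 (Egln3 and Hif1a) had an unadjusted p under 0.05, beside 2461 in place of 1613 of all genes. On recovered reads, limma voom called 0 of 8 in either genotype.

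Egln3 gave the widest values. Egln3 in F/F mice was 14.5, 28.2, 13.6 and 14.9 FPKM in Norm and 36.4, 15.5, 28.6 and 25.3 FPKM in Hypo. ChMKO mice had 17.7, 19.6, 14.9 and 19.4 FPKM in Norm and 23.0, 18.7, 46.9 and 34.6 FPKM in Hypo. The groups overlapped in both genotypes through 1 high Norm library in F/F mice (28.2 FPKM) and 1 low Hypo library in each genotype (15.5 and 18.7 FPKM). The log2 change was 0.55 in F/F (SE 0.294, 95% interval -0.12 to 1.21, limma adjusted p = 1.00) and 0.67 in ChMKO mice (SE 0.239, 0.14 to 1.20, limma unadjusted p = 0.0181, adjusted p = 0.220). Leaving out single libraries moved it between 0.38 and 0.78 in F/F and between 0.44 and 0.87 in ChMKO mice, and no such fit gave a call. Within the high set of F/F mice Egln3 was 13.6 and 14.9 FPKM in Norm and 28.6 and 25.3 FPKM in Hypo, without overlap, and within the low set 14.5 and 28.2 against 36.4 and 15.5 FPKM. With the set as a term the F/F change was 0.55 (95% interval -0.11 to 1.20, limma adjusted p = 0.400).

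Slow-twitch sarcomere genes moved with Egln3 in the same libraries. The summed FPKM of Myh7, Myh7b, Tnnc1, Tnni1 and Tnnt1 was 15.8, 123, 39.7 and 29.9 in Norm and 517, 92.3, 191 and 172 in Hypo of F/F mice, in the order of mice used above. The sum in ChMKO mice was 12.4, 89.6, 6.31 and 125 in Norm and 178, 70.1, 337 and 565 in Hypo. The Norm library with the most Egln3 in F/F mice also had the most slow-twitch RNA of its group, and the Hypo libraries with the least Egln3 had the least of theirs. Of the slow-twitch list, 4 of 4 tested genes had an unadjusted p under 0.05 and none passed the adjusted p in either genotype, with a median log2 change of 2.28 in F/F and 2.65 in ChMKO mice. The fit of all 6 groups with the set called 4 of 4 in ChMKO mice. The part of slow fibres in the Egln3 values of hypoxic muscle was not tested.

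**Figure D2:**
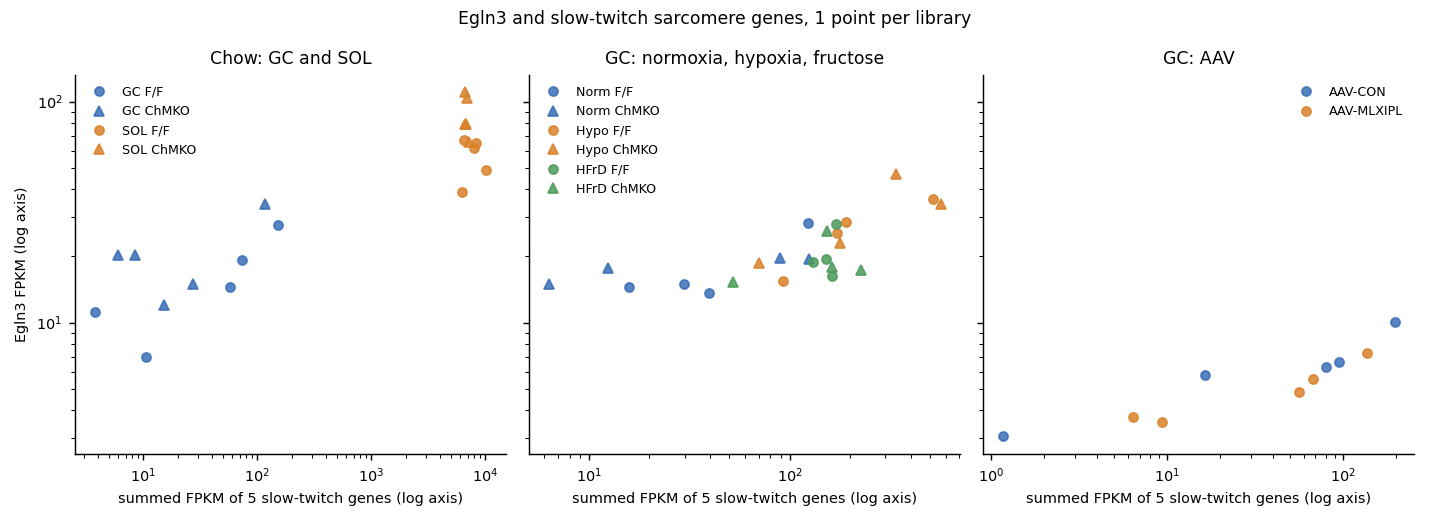
Egln3 FPKM (vertical, log axis) against the summed FPKM of 5 slow-twitch sarcomere genes (horizontal, log axis), 1 point per library, in the chow table (20 libraries), the table of normoxia, hypoxia and fructose (24) and the AAV table (10). Colours mark muscle or treatment and shapes mark genotype; in the AAV table Egln3 is 3.06 FPKM at the lowest slow-twitch sum (1.17 FPKM) and 10.045 FPKM at the highest (198 FPKM).

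The other hydroxylases stayed close to normoxia. Egln1 was 81.2 to 116 FPKM in Norm and 82.3 to 113 FPKM in Hypo of F/F mice (log2 change 0.05, 95% interval -0.29 to 0.39), and differed by 0.10 (-0.11 to 0.30) in ChMKO mice. Egln2 differed by -0.02 (-0.32 to 0.28) in F/F and by -0.03 (-0.21 to 0.15) in ChMKO mice. Epas1 differed by -0.01 (-0.49 to 0.47) and 0.04 (-0.23 to 0.32). Hif1a was 4.19, 4.08, 4.22 and 4.78 FPKM in Norm and 3.23, 3.15, 4.95 and 4.07 FPKM in Hypo of F/F mice, and its change of -0.15 (-0.45 to 0.15) was matched by -0.20 (-0.44 to 0.04) in ChMKO mice, where Norm held 3.42 to 4.38 FPKM and Hypo 2.55 to 3.66 FPKM. Those intervals leave out a rise of more than 0.47 on the log2 scale for these 4 genes, and p over the threshold does not show that they were equal.

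Vegfa was 34.6, 47.3, 37.0 and 49.9 FPKM in Norm and 53.5, 27.4, 63.8 and 54.0 FPKM in Hypo of F/F mice. ChMKO mice had 36.3, 36.2, 28.1 and 33.6 FPKM in Norm and 40.4, 43.1, 38.9 and 30.1 FPKM in Hypo. In each genotype 3 of the 4 Hypo libraries exceeded all Norm libraries, and 1 fell among or below them. The change was 0.18 (95% interval -0.40 to 0.76, limma adjusted p = 1.00) in F/F and 0.17 (-0.11 to 0.45, limma adjusted p = 0.574) in ChMKO mice. Leaving out single libraries moved the Vegfa change between 0.04 and 0.44 in F/F, the highest without the Hypo library at 27.4 FPKM, and between 0.09 and 0.28 in ChMKO mice. Bnip3 differed by 0.16 (-0.08 to 0.41) and 0.10 (-0.20 to 0.40), where the ChMKO mean rested on 1 library at 72.4 FPKM among 46.0, 47.3 and 51.8 FPKM, and without it the change was -0.04. Higd1a differed by -0.06 (-0.39 to 0.28) and 0.10 (-0.15 to 0.34). Ankrd37 had 2 to 27 reads in each of these libraries, and Hif3a 11 to 96 reads. Hif3a was 0.173 to 0.792 FPKM in Norm and 0.293 to 0.455 FPKM in Hypo of F/F mice, and 0.113 to 0.264 and 0.231 to 0.488 FPKM in ChMKO mice, overlapping in each genotype.

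The test of whether hypoxia acted differently in the genotypes called 0 of 8 genes, beside 0% of all genes, and 0 of 8 had an unadjusted p under 0.05, beside 1.23%, and also with the set as a term. For Egln3 the difference of the changes was 0.12 (95% interval -0.75 to 1.00), an interval that also holds differences as large as the changes themselves.

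**Figure D3:**
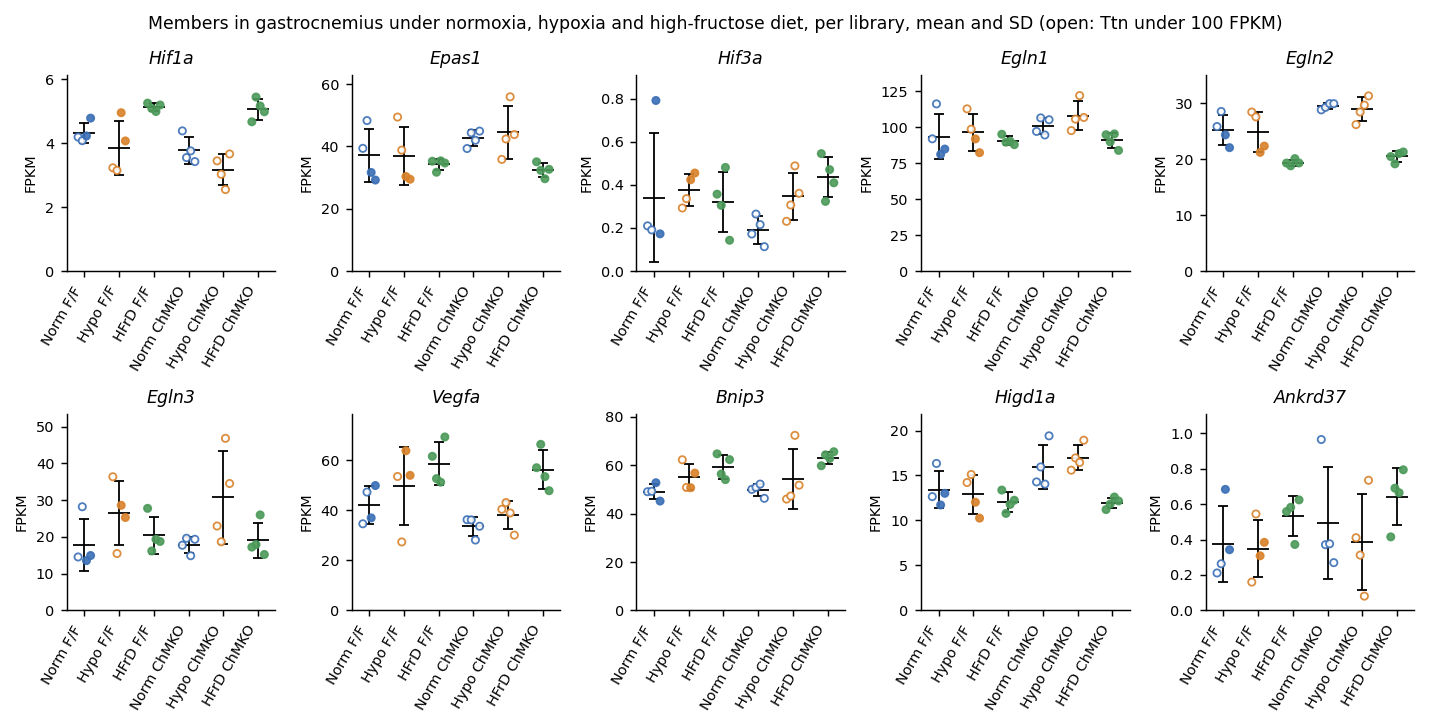
FPKM of the 10 genes on linear axes from 0 in GC under normoxia (Norm, blue), hypoxia (Hypo, orange) and high-fructose diet (HFrD, green), F/F mice left and ChMKO mice right in each panel. Each point is 1 library (n = 4 per group), with the mean as a dash and the SD as bars; Norm and Hypo overlap for all 8 tested genes, and Egln2 is lowest on HFrD. Open points are libraries with Ttn under 100 FPKM, which include every Norm and Hypo library of ChMKO mice and no HFrD library.

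Among other genes of the pathway in hypoxia, from lists given by function, 1 of 18 tested HIF targets outside glycolysis and 1 of 17 HIF targets of glycolysis passed the adjusted p in ChMKO mice, and both were lower. At an unadjusted p under 0.05, 4 glycolytic targets were higher and 2 lower there, and 0 and 1 in F/F mice, with 11 and 13 of 17 above 0 in the 2 genotypes. Vldlr, a receptor for triglyceride-rich lipoproteins, was 23.7, 24.9, 29.9 and 24.8 FPKM in Norm and 12.2, 20.3, 11.4 and 13.97 FPKM in Hypo, a log2 change of -0.82 (SE 0.160, limma adjusted p = 0.0476). Pfkfb4, a kinase that raises fructose 2,6-bisphosphate, was 13.1, 13.2, 12.9 and 12.7 FPKM in Norm and 5.602, 9.77, 8.28 and 6.52 FPKM in Hypo, a change of -0.74 (SE 0.139, limma adjusted p = 0.0425). In both cases every Hypo library lay below every Norm library, and each call was lost in 7 of 8 fits without 1 library (adjusted p up to 0.145 for Vldlr and 0.113 for Pfkfb4). In F/F mice neither passed, with -0.76 for Vldlr (limma adjusted p = 1.00) and -0.52 for Pfkfb4 (limma unadjusted p = 0.0101, adjusted p = 1.00). None of 12 tested partners of oxygen sensing and none of 14 VEGF family and receptor genes passed in either genotype, while the fit of all 6 groups with the set called 3 of 12 partners, 2 of 14 VEGF genes and 3 of 17 glycolytic targets in ChMKO mice. At an unadjusted p under 0.05, 3 of the 12 partners were higher and 2 lower in ChMKO mice (Cited2, Elob and Rbx1 against Vhl and Ep300), and 1 was lower in F/F mice. Vhl, the ubiquitin ligase subunit that binds hydroxylated HIF alpha, was picked out after its values were seen: it was 3.76, 3.09, 2.29 and 2.69 FPKM in Norm and 1.93, 1.93, 1.09 and 1.40 FPKM in Hypo of F/F mice, without overlap. Its change was -0.61 (limma unadjusted p = 0.00347, adjusted p = 1.00) in F/F and -0.43 (limma unadjusted p = 0.00162, adjusted p = 0.0849) in ChMKO mice. Red blood cell markers summed to 103 to 387 FPKM in Norm and 156 to 644 FPKM in Hypo of F/F mice, and to 217 to 407 and 316 to 840 FPKM in ChMKO mice, with none of 5 past the adjusted p and 4 of 5 at an unadjusted p under 0.05 in ChMKO mice, all higher in Hypo.

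Loss of ChREBP in muscle left no call among the 8 or 9 of these genes tested in each comparison. In GC on chow 0 of 9 tested genes passed, beside 0.0236% of all genes by limma adjusted p, and 0 of 9 had an unadjusted p under 0.05, beside 4.63%. In SOL 0 of 9 passed, beside 0.0225%, and 2 of 9 had an unadjusted p under 0.05, beside 9.74%, a count of 1 of 9 in 8 of the 10 fits without 1 library and with voom. Over all genes that count went from 1300 to 2016 without SOL of F/F mouse 57. The 2 genes were Egln3, higher in ChMKO by 0.63 (SE 0.176, limma unadjusted p = 0.00414, adjusted p = 0.378), and Egln1, higher by 0.15 (SE 0.0657, limma unadjusted p = 0.0398, adjusted p = 0.493). The Egln3 levels given above show that only the lowest ChMKO library, at 65.5 FPKM, fell within the F/F range, which ended at 66.8 FPKM. In Norm 0 of 8 passed, beside 0.00922%, and 1 of 8 had an unadjusted p under 0.05, beside 11.1%. It was Egln2, at 22.0 to 28.5 FPKM in F/F and 28.8 to 29.9 FPKM in ChMKO mice, a change of 0.22 (SE 0.0892, limma adjusted p = 0.419). The count was 0 of 8 in 4 of the 8 fits without 1 library (Norm ChMKO at 29.2, either at 29.9 or Norm F/F at 22.0 FPKM of Egln2), and 5 of 8 without Norm F/F at 28.5 FPKM, while the count over all genes went from 1207 to 3601 without the latter, to 462 to 674 without those ChMKO libraries, and to under 462 without either Norm F/F library of the high set. Fitted with the set it was 0 of 8, beside 380 of all genes, with Egln2 at 0.11 (95% interval -0.05 to 0.28). In Hypo 0 of 8 passed, beside 0.00941%, and 1 of 8 had an unadjusted p under 0.05, beside 5.27%. It was Higd1a, at 10.3 to 15.1 FPKM in F/F and 15.6 to 18.9 FPKM in ChMKO mice, a change of 0.38 (SE 0.134, limma adjusted p = 0.532). The count was 2 of 8 without the Hypo F/F library at 14.2 or at 15.1 FPKM of Higd1a and 0 of 8 without that at 10.3 FPKM, beside 2324, 1402 and 131 in place of 560 of all genes. Fitted with the set it was 0 of 8, beside 126 of all genes, with Higd1a at 0.20 (95% interval -0.08 to 0.47). With all 6 groups and the set in 1 fit, Higd1a was at 0.24 (0.02 to 0.46, limma unadjusted p = 0.0374), without a call. On HFrD 0 of 9 passed, beside 0.0190%, and 0 of 9 had an unadjusted p under 0.05, beside 7.36%.

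The fructose diet shares its Norm libraries with the hypoxia comparison, and its values stand beside those for that reason. The diet lasted 3 months and the chamber exposure 2 weeks, and ages at collection are not given. In both genotypes the diet therefore cannot be told apart from a difference in age or time of collection. Compared by group, 6 of 9 tested genes passed in ChMKO mice, 3 higher and 3 lower, beside 64.0% of all genes by limma adjusted p. All ChMKO Norm libraries were of the low and all HFrD libraries of the high set. With all 6 groups in 1 fit and the set as a term, estimated from F/F mice, 0 of 9 passed and 37 in place of 6868 of all genes did, and 2 of 9 (Bnip3 and Egln2) had an unadjusted p under 0.05, beside 1409 of all genes. In F/F mice 0 of 8 passed, beside 0%, and 4 of 8 had an unadjusted p under 0.05, 3 higher and 1 lower, beside 23.6%. With the set as a term in a fit of Norm and HFrD alone these were again 4 of 8, 3 higher and 1 lower, beside 1540 in place of 2531 of all genes. With all 6 groups and the set, Bnip3 (limma unadjusted p = 0.0238) and Egln2 (0.00343) stayed under 0.05, but Vegfa (0.142) and Hif1a (0.389) did not. Below, values with the set are from all 6 groups in ChMKO mice and, unless stated, from Norm and HFrD alone in F/F mice. The median of all genes was -0.17 in ChMKO and -0.10 in F/F mice as compared by group.

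Egln2 was 28.8 to 29.9 FPKM in Norm and 19.1 to 21.3 FPKM on HFrD in ChMKO mice, a log2 difference of -0.51 (SE 0.0476, limma adjusted p = 2.38e-05), and -0.22 (95% interval -0.39 to -0.05, adjusted p = 0.232) with the set as a term. F/F mice held 25.8 and 28.5 FPKM in the low and 24.3 and 22.0 FPKM in the high set of Norm and 18.8 to 20.1 FPKM on HFrD, below both. The F/F difference was -0.36 (SE 0.0882, limma unadjusted p = 0.00305, adjusted p = 0.145) and -0.25 (-0.40 to -0.09, unadjusted p = 0.00668, adjusted p = 0.209) with the set as a term. A fit over all 6 groups gave an adjusted p of 0.0404, and of 0.176 with the set.

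Vegfa was 28.1 to 36.3 FPKM in Norm and 57.04, 66.4, 53.5 and 47.8 FPKM on HFrD in ChMKO mice, a difference of 0.72 (SE 0.110, limma adjusted p = 0.000397), and 0.38 (95% interval -0.14 to 0.90, adjusted p = 0.547) with the set as a term. Vegfa in F/F mice was 34.6 to 49.9 FPKM in Norm and 61.6, 52.7, 51.3 and 69.3 FPKM on HFrD, a difference of 0.47 (SE 0.147, limma adjusted p = 0.158), and 0.43 (0.04 to 0.82, unadjusted p = 0.0351, adjusted p = 0.312) with the set. With all 6 groups and the set, the F/F difference was 0.30 (-0.11 to 0.71, limma unadjusted p = 0.142), an interval that holds 0. HFrD and Norm did not overlap in either genotype, nor in F/F mice within the high set, where Norm held 37.0 and 49.9 FPKM.

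Bnip3 differed by 0.34 (SE 0.0529, limma adjusted p = 0.000506) in ChMKO mice and by 0.37 (95% interval 0.06 to 0.68, adjusted p = 0.273) with the set as a term, and by 0.27 in F/F mice with and without it (limma adjusted p = 0.264 and 0.167). Hif1a differed by 0.35 (SE 0.0735, limma adjusted p = 0.00274) in ChMKO mice and by 0.10 (-0.15 to 0.35, adjusted p = 0.770) with the set, and by 0.21 and 0.16 in F/F mice (limma adjusted p = 0.173 and 0.329). With all 6 groups and the set, the F/F differences were 0.29 (0.04 to 0.53) for Bnip3 and 0.08 (-0.11 to 0.28) for Hif1a. Neither gene overlapped between diets in either genotype.

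Epas1 differed by -0.39 (SE 0.0644, limma adjusted p = 0.000695) in ChMKO mice as compared by group and by 0.14 (95% interval -0.16 to 0.43, adjusted p = 0.740) with the set as a term, so that its sign turned. Epas1 in F/F mice was 39.4 and 48.3 FPKM in the low and 31.6 and 29.2 FPKM in the high set of Norm, and differed by -0.09 (-0.42 to 0.25) and by 0.17 (-0.04 to 0.37) with the set. Higd1a differed by -0.38 (SE 0.0946, limma adjusted p = 0.00681) and by -0.09 (adjusted p = 0.834) with the set in ChMKO mice. Its call was also lost when libraries were rescaled (-0.18, adjusted p = 0.177), and in F/F mice it differed by -0.14 (-0.39 to 0.11). Egln3 differed by 0.07 (-0.27 to 0.41) in ChMKO and 0.23 (-0.32 to 0.77) in F/F mice, and by 0.23 (-0.57 to 1.03) and 0.47 (-0.12 to 1.06) with the set. With all 6 groups and the set, the F/F difference of Egln3 was 0.31 (-0.32 to 0.94).

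Egln1 differed by -0.15 (limma adjusted p = 0.0582) in ChMKO mice and passed without the Norm library at 94.6 FPKM (adjusted p = 0.0382), while with the set as a term it differed by 0.15 (adjusted p = 0.602). Ankrd37 differed by 0.15 (95% interval -0.16 to 0.46), passed without the Norm library at 0.964 FPKM (adjusted p = 0.0240), and differed by 0.01 (adjusted p = 0.992) with the set. Fitted without the filter and by group, Hif3a differed by 0.27 (limma adjusted p = 0.00509) in ChMKO mice, from 11 to 28 reads in Norm and 47 to 68 on HFrD. Hif3a in F/F mice differed by 0.00 (limma adjusted p = 0.989), from 19 to 96 reads in Norm and 19 to 62 on HFrD.

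The diet by genotype contrast called 0 of 9 genes, beside 0% of all genes, and 0 of 9 had an unadjusted p under 0.05, beside 10.3%. Without the Norm F/F library that was highest in Epas1 (48.3 FPKM), 1093 of 10722 genes passed the contrast, and 4 of 9 members had an unadjusted p under 0.05. Epas1 alone of them then passed, with -0.43 (adjusted p = 0.0439), from -0.30 with that library. With the set as a term 0 of 9 passed either p, beside 409 of all genes at an unadjusted p under 0.05, and Epas1 was at -0.04 (95% interval -0.28 to 0.19).

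Markers of other cell types and of fibre types moved with the sets and the diet. Endothelial markers summed to 136 to 153 FPKM in Norm and 81.4 to 95.3 FPKM on HFrD in ChMKO mice, with 9 of 10 lower by adjusted p, and in F/F mice to 135 and 159 FPKM in the low set and 78.2 and 80.8 FPKM in the high set of Norm, beside 80.3 to 92.9 FPKM on HFrD. Compared by group in ChMKO mice, 5 of 5 red blood cell, 5 of 6 fibroblast and tendon, 4 of 5 macrophage, 3 of 5 smooth muscle and pericyte and 5 of 6 skeletal muscle identity markers were also lower. The macrophage calls of Adgre1 and Cd68 were lost in 4 and 5 of 8 fits without 1 library. The sixth identity marker, Ttn itself, was 28.4 to 36.8 FPKM in Norm and 141 to 151 FPKM on HFrD. In F/F mice none of these lists held a call, while 6 of 6 fibroblast, 4 of 5 red blood cell and 3 of 5 macrophage markers were lower at an unadjusted p under 0.05. With the set as a term none held a call in ChMKO mice. Slow-twitch genes summed to 15.8 to 123 FPKM in Norm and 131 to 170 FPKM on HFrD in F/F mice, without overlap, and to 6.31 to 125 and 52.4 to 226 FPKM in ChMKO mice. Their median difference was 1.84 in F/F and 1.86 in ChMKO mice, and 2.03 and 2.21 with the set, with 4 of 4 at an unadjusted p under 0.05 in F/F mice and no call there. Of the slow-twitch genes only Myh7 passed by group in ChMKO mice, a call lost in 5 of 8 fits without 1 library. The part of other cells and fibre types in the diet values was not tested.

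**Figure D4:**
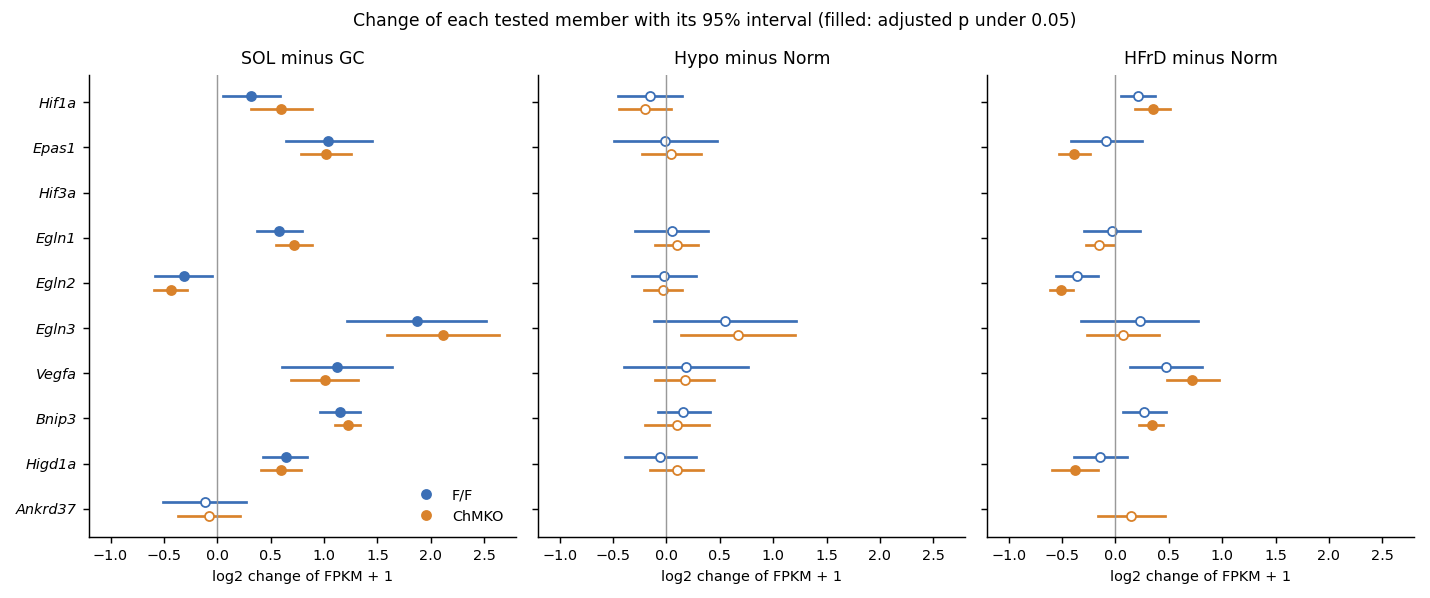
Log2 change of FPKM + 1 (horizontal) for each tested gene, with its 95% interval, for soleus minus gastrocnemius, hypoxia minus normoxia and high-fructose diet minus normoxia in F/F (blue) and ChMKO (orange) mice. Filled points passed the adjusted p; 8 genes are filled in each genotype in the muscle panel and none in the hypoxia panel, and genes under the filter have no point. The 6 filled ChMKO points of the diet panel are differences between the 2 sets of libraries as well, and with the set as a term none passed.

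Overexpression of ChREBP was tested in muscle and in cells. In GC, Mlxipl was 10.35 to 12.3 FPKM with AAV-CON and 52.9 to 101 FPKM with AAV-MLXIPL. None of 9 tested genes passed, beside 0.00904% of all genes by limma adjusted p, and 1 of 9 had an unadjusted p under 0.05, beside 2.91%. It was Vegfa, at 30.8, 33.7, 24.5, 37.9 and 30.3 FPKM with AAV-CON and 35.9, 34.2, 38.3, 44.9 and 34.8 FPKM with AAV-MLXIPL. Those groups overlapped, with a change of 0.26 (SE 0.107, limma unadjusted p = 0.0322, adjusted p = 1.00), and the count was 0 of 9 in 4 of 10 fits without 1 library (AAV-MLXIPL animal 4 or 7, AAV-CON animal 1 or 8). Libraries with the same number were taken as pairs, which no source used here states. Within these pairs Vegfa was higher with AAV-MLXIPL in 5 of 5. The blocked fit gave 0.26 with an adjusted p of 0.847 and 0 of 9 calls, and with it 647 genes in place of 322 had an unadjusted p under 0.05. Egln3 was 5.78, 6.65, 3.06, 10.045 and 6.29 FPKM with AAV-CON and 3.73, 3.54, 4.86, 7.30 and 5.55 FPKM with AAV-MLXIPL, a change of -0.26 (95% interval -0.77 to 0.25). The changes of Egln1, Egln2 and Epas1 were within 0.01 of 0.

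In differentiated C2C12 cells, where Mlxipl went from at most 0.02 FPKM to 12.8 to 13.8 FPKM, 4 of 8 tested genes passed, 1 higher and 3 lower, beside 30.5% of all genes by limma adjusted p. Their changes were small against those between muscles. Vegfa was 105, 107, 106 and 109 FPKM in control and 92.5, 94.1, 91.8 and 94.6 FPKM in overexpressing cultures, a change of -0.19 (SE 0.0248, limma adjusted p = 0.000183). Egln1 changed by -0.16 (SE 0.0350, limma adjusted p = 0.00637), Higd1a by -0.13 (SE 0.0358, limma adjusted p = 0.0194) and Egln3 by 0.12 (SE 0.0320, limma adjusted p = 0.0188). For each of these genes the cultures of the lines did not overlap. The Egln3 call was lost without overexpressing culture 4 (adjusted p = 0.0573), and the Higd1a call without overexpressing culture 2 or control culture 1 (0.0541 and 0.0520), while Egln2 passed without overexpressing culture 1 (0.0398) and Ankrd37 without overexpressing culture 2 (0.0417). Each line is a single stable population, so a difference between lines cannot be told apart from ChREBP itself. Slow-twitch markers summed to 393 to 430 FPKM in control and 547 to 585 FPKM in overexpressing cultures, and 4 of 6 skeletal muscle identity markers were higher in the latter. Fibroblast and tendon markers were lower for 4 of 5 tested, with sums of 1261 to 1286 and 1054 to 1086 FPKM. Summed smooth muscle markers were 437 to 461 and 633 to 657 FPKM, with 1 of 3 higher and 1 lower, and fast-twitch markers at most 334 and at least 405 FPKM, with 3 of 5 higher and 2 lower. The part of these lists in the changes was not tested. Levels also set the cells apart from muscle: Hif1a was 107 to 115 FPKM, Epas1 0.00 to 0.07 FPKM and Ankrd37 5.37 to 7.14 FPKM. The tables were normalized separately, so these are set beside muscle as levels only.

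**Figure D5:**
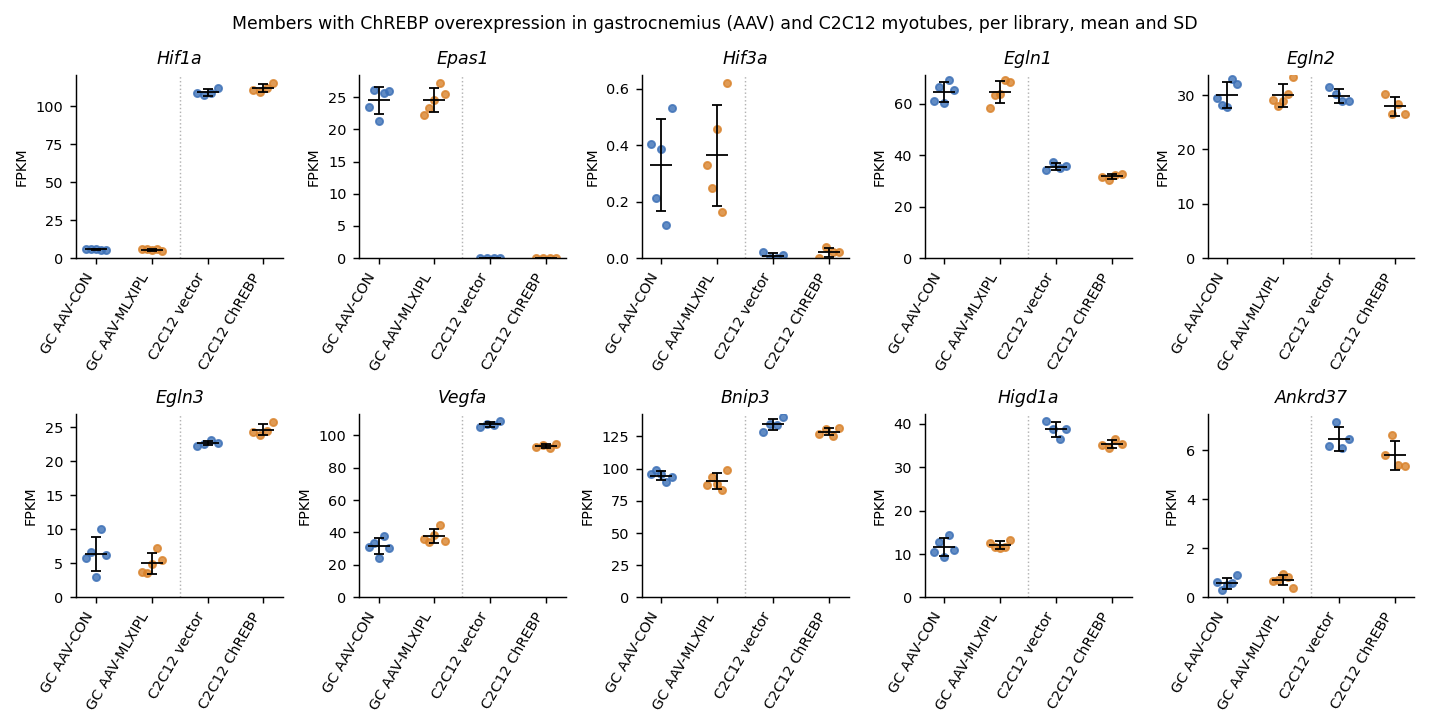
FPKM of the 10 genes on linear axes from 0 in GC injected with AAV-CON or AAV-MLXIPL (n = 5 each) and, right of the dotted line, in C2C12 myotubes with vector or ChREBP (n = 4 each). Points are libraries, dashes means and bars SD; Vegfa is lower in all 4 ChREBP cultures than in all 4 controls, and Epas1 and Hif3a are near 0 in C2C12.

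Other genes of the pathway between SOL and GC went in several directions. Of 14 VEGF family, receptor and angiopoietin genes tested in F/F mice, 12 were higher in SOL and none lower, and in ChMKO mice 11 of 13 were higher and none lower, with a median change of 0.78 in each. Beside these, 50.4% of all tested genes passed in F/F and 57.9% in ChMKO mice, with medians of 0.18 and 0.15 over all genes. Kdr, the main VEGF receptor of endothelium, changed by 1.38 (limma adjusted p = 0.000829) and 1.19 (7.31e-05), Angpt1 by 1.14 (0.000581) and 1.05 (1.72e-05) and Flt1 by 1.07 (0.00302) and 0.94 (2.34e-05), in F/F and ChMKO mice. Kdr, Flt1 and Tek also stand in the endothelial list.

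HIF targets of glycolysis and glucose entry were mostly lower in SOL, with 10 of 17 lower and 6 higher in each genotype and a median change of -1.09 in F/F and -1.24 in ChMKO mice. The share of all genes that passed was again 50.4% and 57.9%. Pfkfb3, which drives glycolytic flux, was 52.1 FPKM in GC and 3.08 FPKM in SOL of F/F mice, a change of -3.73 (SE 0.271, limma adjusted p = 3.64e-06), and -3.61 (limma adjusted p = 1.33e-07) in ChMKO mice. Slc16a3, the lactate exporter of fast fibres, changed by -2.64 (limma adjusted p = 1.16e-05) and -2.81 (limma adjusted p = 7.38e-08). Ldha changed by -1.58 (limma adjusted p = 9.06e-06) in F/F mice, and Aldoa by -1.65 (limma adjusted p = 8.86e-09) in ChMKO mice.

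Of HIF targets outside glycolysis, 8 of 18 were higher and 2 lower in F/F mice (50.4% of all genes passed), and 8 of 17 were higher and 3 lower in ChMKO mice (57.9%). Ndufa4l2, a mitochondrial protein, changed by 0.91 (limma adjusted p = 0.000242) and 0.92 (limma adjusted p = 0.000432), and Vldlr by -0.94 (limma adjusted p = 0.000110) and -0.69 (limma adjusted p = 9.78e-05). Among the partners of oxygen sensing, Hif1an, the asparaginyl hydroxylase that blocks HIF transactivation, changed by -0.46 in each genotype (limma adjusted p = 0.000732 and 0.000106), without overlap of the muscles. Siah2, a ligase that degrades Egln proteins, changed by 0.45 (limma adjusted p = 0.00799) and 0.35 (limma adjusted p = 0.00766). In all, 1 of 10 tested partners was higher and 1 lower in F/F mice, and 2 of 10 were higher and 2 lower in ChMKO mice.

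On the fructose diet in ChMKO mice, compared by group, where 64.0% of all genes passed, 10 of 17 glycolytic HIF targets were lower and 1 higher, led by Gapdh (-1.04, limma adjusted p = 0.000227), Slc16a3 (-0.96, limma adjusted p = 1.48e-05) and Tpi1 (-0.95, limma adjusted p = 1.58e-06). In the VEGF list 9 of 14 were lower and 2 higher, with Kdr at -0.91 (limma adjusted p = 0.000301). Of the other HIF targets 7 of 18 were lower and 4 higher, and of the partners 5 of 12 were lower and 4 higher, with Vhl at -0.63 (limma adjusted p = 0.000105) and Cited2, which competes with HIF for its coactivator, at 1.45 (limma adjusted p = 0.0248), a call lost in 3 of 8 fits without 1 library. With all 6 groups and the set of libraries as a term, 0 genes of each of these lists passed. In C2C12 cells, where 30.5% of all genes passed, 8 of 17 glycolytic targets were lower and 1 higher, and 7 of 17 other targets were lower and 5 higher. None of these lists held a call for AAV-MLXIPL against AAV-CON or between genotypes in any of the 5 comparisons.

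Within groups, several of the genes varied together from library to library. These correlations are of log2(FPKM + 1) after group means were removed (in the table with 2 sets, the means of each group and set), are given as a description without a test, and their points share tables, depth and tissue composition. Epas1 and Egln1 had r = 0.71 over the 20 chow libraries, 0.75 over the 24 libraries of normoxia, hypoxia and fructose and 0.90 over the 10 AAV libraries. Hif1a and Egln2 had r = -0.77, -0.32 and -0.85 in these tables. With the summed endothelial markers Epas1 had r = 0.80, 0.80 and 0.84, Egln1 0.70, 0.64 and 0.74 and Egln3 0.60, 0.76 and 0.66. With the slow-twitch sum Egln3 had 0.64, 0.68 and 0.95, Egln1 0.75, 0.72 and 0.88, Epas1 0.66, 0.53 and 0.96 and Vegfa 0.29, 0.34 and 0.85, so neither list went with 1 gene alone. The 8 C2C12 cultures had r = -0.55 for Epas1 and Egln1, -0.53 for Epas1 and the endothelial sum and -0.20 for Egln3 and the slow-twitch sum, while Hif1a and Egln2 had -0.36. In these cultures Epas1 was at most 0.07 FPKM and the endothelial sum at most 1.76 FPKM. The r values with Epas1 there rest on levels near the floor and are not comparable with those of muscle.

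The genes most like each member over the 24 libraries of normoxia, hypoxia and fructose, by the same measure among 9314 genes of at least 1 FPKM, are given as a description. Egln1 was nearest to Slc25a3 (r = 0.95), Acaa2 (0.93) and Mdh1 (0.92), Epas1 to Acads (0.93) and Ube2g2 (0.92), and Higd1a to Amhr2 (0.81), Ndufs6 (0.78) and Atp5mpl (0.78). Egln3 was nearest to Dhrs4 (0.94), Pla2g12a (0.93) and Khdrbs3 (0.92), and Vegfa to Tmem70 (0.90), Acad9 (0.87) and Slc16a6 (0.86). For Bnip3 they were Sema3g (0.89), Pttg1ip (0.84) and Arhgef15 (0.84), for Egln2 Tmem259 (0.87), Napa (0.86) and Arf1 (0.84), and for Hif1a Tmtc3 (0.81), Sarnp (0.78) and Brd7 (0.78). Hif3a and Ankrd37 were under the level needed.

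In the deposited positions of build GRCm39 the 3 hydroxylase genes lie apart, Egln1 on chromosome 8 from 125635326 to 125676063, Egln2 on chromosome 7 from 26858083 to 26866227 and Egln3 on chromosome 12 from 54225767 to 54250646, all on the minus strand. Vegfa lies on chromosome 17 from 46327919 to 46343295 (minus strand), Epas1 on chromosome 17 from 87061128 to 87140838 (plus strand) and Bnip3 on chromosome 7 from 138492565 to 138511248 (minus strand). Values are sums over the exons of each gene and do not separate its isoforms.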

How the data were processed

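RNA was measured in 62 mouse libraries of 14 groups, assigned from the labels. The authors deposited FPKM for 4 experiments. Per the submitters' processing notes the tools were fastp 0.18.0, Bowtie2 2.2.8, HISAT2 2.1.0, StringTie 1.3.1 and RSEM, with build GRCm39, although the chow table carries GRCm38 coordinates. For AAV and C2C12 the values themselves gave the unit. Group means, fold changes, p-values and FDR that the authors added to the AAV table were not used. Gene identifiers of the AAV (20918 of 21039) and C2C12 (17842 of 17898) tables were matched to symbols by RefSeq, and the entry with the highest mean was kept where a symbol was repeated.

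Each pair of groups was fitted by itself with limma 3.58.1 (R 4.3.3, statmod 1.5.0, eBayes with trend, two-sided) on log2(FPKM + 1), over genes averaging 0.5 FPKM or more in the libraries compared, with Benjamini-Hochberg adjustment over all genes tested and a call at 0.05. This scale understates changes of genes near 1 FPKM. The procedure was run on simulated data with independent noise for each gene. Those data held neither the 2 sets of libraries nor pairs, so the run does not bear on them. Whole reads were recovered, within 0.01 of a read, for 99.9% of values in the table of normoxia, hypoxia and fructose. In the chow table the effective length was taken as the shortest from 50 to 30000 bases that made every library whole within 0.02 reads plus 2e-06 of the count, which was found for 99.9% of genes averaging 0.5 FPKM or more. Python 3.11.15 with pandas 2.3.3 and matplotlib 3.10.9 was used for summaries. The 10 genes and the lists were chosen with earlier results of these data known. The genes named are the 10 members, and from the pathway lists at most 4 per list and comparison that passed, the largest first. Some genes that this rule or the likeness measure names are not reported here. Replicates within a group were separate mice or, for C2C12, separate cultures, and p-values measure the spread between them. The main fits of SOL against GC and of AAV-MLXIPL against AAV-CON did not use shared numbers. Fits with replicate blocks are given as alternatives.

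SOL and GC libraries that share a number in the labels were taken as 1 mouse, which no source used here states, and 1 soleus library of F/F mouse 69 carries another number in its title. After group means were removed, same-numbered libraries correlated with r of -0.04 to 0.34 in F/F and 0.02 to 0.06 in ChMKO mice, where 1 of 5 was nearest its own number. The AAV numbers were taken to pair the libraries only because every pair correlated, with r of 0.22 to 0.51. No label states these pairs, and number 3 (r = 0.22) was not nearest its own number. Alternatives were a pseudocount of 0.1, no filter, a filter at 5 FPKM, rescaled libraries, leaving out each library, replicate blocks, voom on recovered reads and, where groups allow, all 6 groups in 1 fit. After the data were seen, the set of libraries (Ttn above or below 100 FPKM) was added as a term, in the groups compared where both sets occur within a group and in all 6 groups. It assumes 1 shift per gene between the sets in every group.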

Additional observations from a re-analysis of the deposited data

Results flagged for a closer look

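In 7 of the 140 combinations of gene and group (5%), the highest or lowest library stood apart from the rest of its group by Dixon's test at the 95% level. Chance flags about 1 in 20 groups. Egln3 was 28.2 FPKM in 1 Norm F/F library, with the next at 14.9 FPKM, and without it the hypoxia change in F/F mice was 0.78 in place of 0.55. Bnip3 was 89.9 FPKM in GC of ChMKO mouse 74, below the next at 95.5 FPKM. Hif1a was 4.51 FPKM in AAV-MLXIPL animal 8, below the next at 5.67 FPKM. Hif3a was 0.792 FPKM in 1 Norm F/F library, with the next at 0.210 FPKM. Ankrd37 was 2.17 FPKM in GC of F/F mouse 57, with the next at 0.794 FPKM, and 0.964 FPKM in 1 Norm ChMKO library, with the next at 0.376 FPKM. Epas1 was 0.06 FPKM in overexpressing C2C12 culture 2, with the next at 0.01 FPKM. The causes were not tested.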

How the results depend on the processing

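Of 729 values of single genes under planned settings other than leaving out a library, 722 kept their side of the threshold and no called value changed sign. Of 169 values under alternatives chosen after seeing the data (voom on the chow table, and the set of libraries as a term), 163 kept theirs. The other 6 were the calls for HFrD against Norm in ChMKO mice, where all 6 groups and the set as a term left 0 calls in place of 6 and turned Epas1 from -0.39 to 0.14. Under all 6 groups in 1 fit, HFrD against Norm in F/F mice called 1 gene in place of 0. Leaving out single libraries gave 0 to 1 calls for the diet by genotype contrast (over all genes 0 with all libraries and 1093 without 1 Norm F/F library), 6 to 8 for SOL against GC in F/F mice, 6 to 7 for HFrD against Norm in ChMKO mice and 3 to 5 in C2C12 cells, and 0 in the hypoxia comparisons. In these fits of the muscle by genotype contrast the correlation of 0.06 within mice was held at its value from all libraries. Without a filter Hif1a (adjusted p = 0.0851) and Egln2 (0.0747) lost their calls for SOL against GC in F/F mice, and the cause was not tested.

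With the mouse as a replicate block, 8 of 9 genes were called for SOL against GC in each genotype, and without mouse 69 in either muscle 6 were, Hif1a and Egln2 being lost (adjusted p = 0.115 and 0.0612). The block changed no other call. For C2C12 the numbers pair no cultures by the check (r of -0.08 to 0.19, with 1 of 4 nearest its own number), and the block called 4. Without the random effect of mouse, 0 genes were called in the muscle by genotype contrast.

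Rescaling moved the median of all genes from 0.18 to 0.02 for SOL against GC in F/F mice, and the calls over all genes from 5013 higher and 1660 lower to 3019 and 2802. In ChMKO mice they went from 5359 and 2216 to 3606 and 3476, and for HFrD against Norm in ChMKO mice from 2078 and 4790 to 3032 and 2718. Over all genes the hypoxia comparison in ChMKO mice called 95, with 150 after rescaling, 213 with all 6 groups in the fit, 746 with the set as a term and 6 without a filter, and leaving out single libraries gave 10 (without the Hypo library at 23.0 FPKM or the Norm library at 19.6 FPKM of Egln3) to 129, with 19 to 41 without 4 others. It called 0 in F/F mice, with 2 for all 6 groups and 26 with the set added. HFrD against Norm in F/F mice called 0, with 220 for all 6 groups and 1 with the set added, and in ChMKO mice 6868 and 37 with the set. A filter at 5 FPKM, which tests fewer genes, gave 3319 for SOL against GC in F/F, 3942 in ChMKO mice and 3357 for HFrD in ChMKO mice. The genotype calls went from 3 to 5 in GC (pseudocount of 0.1 or no filter), from 3 to 0 in SOL (5 FPKM) and from 2 to 1 on HFrD (all 6 groups), and the muscle by genotype call from 1 to 2 (no filter) or 0 (5 FPKM). Depth limits Hif3a and Ankrd37, with fewer than 100 reads per library of the chow table and that of normoxia, hypoxia and fructose.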
